A study of Mus musculus with 16 samples.

Results

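CD170 is the mouse lectin Siglec-F. The CD170-high cells described here were 161 of the 5359 cells with at least 100 antibody-tag UMIs (unique molecular identifiers) in 1 library of mouse bone marrow and spleen. That library held 7385 cells, and all 16 libraries of the series held 95930. A cell was placed by the percent of its tag UMIs that came from CD170, and the top 3% of cells were taken. The 2679 cells that ranked lowest by the same value, with at most 6.32%, are called CD170-low, and 2519 cells lay between.

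The study used scTAM-seq, a single-cell assay in which a methylation-sensitive enzyme cuts DNA before 663 amplicons are amplified, so that reads at an amplicon mark a CpG that was methylated in that cell. Oligonucleotide-tagged antibodies against surface proteins were read from the same cells. The library holds mature immune cells labelled LARRY, a lentiviral barcode library for following clones, and marrow and spleen cells share 1 library and cannot be told apart. The sources used here do not state the strain, the age, the number of mice or any treatment.

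Siglec-F is a sialic acid-binding inhibitory receptor. In the mouse it is known as a marker of eosinophils, granulocytes that also carry the integrin chain CD11b and the macrophage-associated receptor F4/80. It is also carried by alveolar macrophages of the lung. The label under which these cells were chosen was Siglec-F-high, with CD11b and F4/80 as accompanying markers, and the tags and the methylation calls below were read against it. By share F4/80 was higher and CD11b was not. No amplicon passed the size used for a call, which was also so for cells chosen by the F4/80 tag. Because the accompanying markers did not both rise, the cells are called CD170-high by their rule and are given no cell type name.

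All 7385 cells were in the tag table, with a median of 147 tag UMIs per cell. From 6 to 40 of its cell barcodes also occurred in each of the other 15 libraries. The panel of the library held 14 tags and 0 isotype control tags, so the antibody background was not measured directly. The other tags and the barcodes outside the amplicon table, called other barcodes, were set beside CD170 instead. Whether the other barcodes hold cells is not stated, so they are not a known background. All CD170-high and CD170-low cells come from 1 library, so there was no replicate and no test. Intervals are exact 95% binomial intervals and cover counting error only.

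CD170 made up 54.9% of tag UMIs in the median CD170-high cell, with the lowest at 27.2% and the highest at 86.7%. In CD170-low cells the median was 4.85% and the highest 6.32%. CD170-high cells had 30 to 3448 CD170 UMIs with a median of 269, and CD170-low cells had 0 to 579 with a median of 9. These values chose the cells and are a description only. At the boundary, the last 3 cells inside had 27.4%, 27.3% and 27.2%, and the first 3 outside had 27.0%, 26.6% and 26.5%. CD170 gave more than 50% of the tag UMIs in 92 members, at least 70% in 45 and at least 80% in 12. Over all cells, 197 (3.68%) reached 20%.

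**Figure D1:**
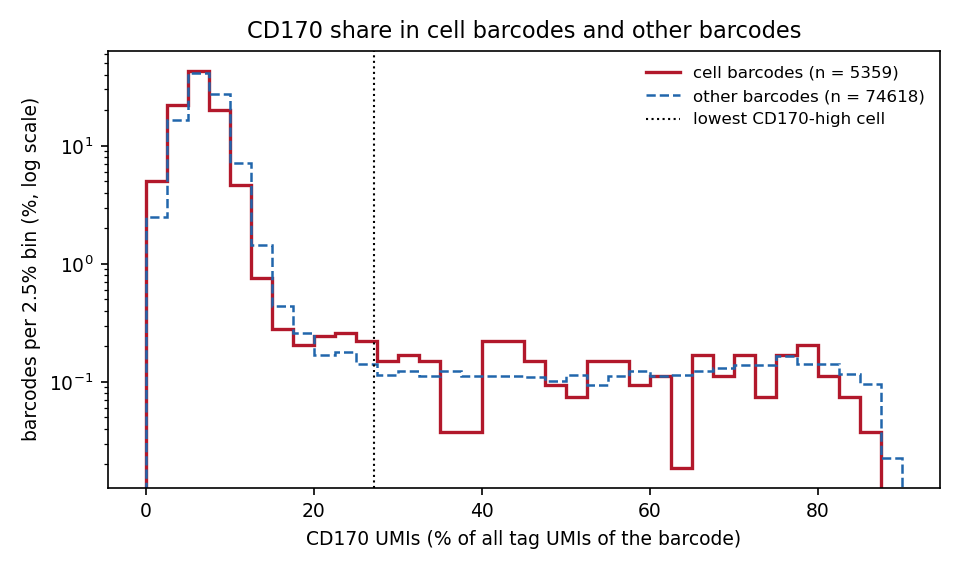
Percent of cell barcodes and of other barcodes (y axis, log scale) in bins of the CD170 share of tag UMIs (x axis, %). Both distributions peak below 10% and carry a low, flat tail to the right of the dotted line at the lowest CD170-high cell, at 27.2%.

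Depth differed between the groups in the tags and little in the amplicons. All tags together gave a median of 506 UMIs in CD170-high cells and 185 in CD170-low cells, and without CD170 a median of 229 in CD170-high cells and 176 in CD170-low cells. Amplicon reads per cell had a median of 25721 in CD170-high cells and 24338 in CD170-low cells. The median number of amplicons read was 427 in CD170-high cells and 434 in CD170-low cells.

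CD11b, the integrin chain of myeloid cells, did not mark the CD170-high cells. CD11b UMIs per cell were 3 at the lowest, 25 at the median and 236 at the highest in CD170-high cells, against 3, 20 and 586 in CD170-low cells, so the groups overlapped throughout. Every other tag was higher in the same way: all 13 tags besides CD170 had a higher median in CD170-high cells, by 1.18 to 1.43 times. Tags were therefore compared as a share of the UMIs of all tags but CD170, and a cell was counted as above when it passed the 75th percentile of all 5359 cells. For CD11b, 32 of 161 CD170-high cells (19.9%, interval 14.01 to 26.9%) were above, against 23.9% of CD170-low cells. The difference of -4.01 points turned to 13.3 points with UMIs undivided and to 6.88 points with CD170-low cells weighted to the tag UMIs of CD170-high cells, and kept its sign in 9 of 11 alternatives.

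F4/80, a receptor of macrophages and eosinophils, gave the only difference of the 2 markers in the labelled direction. F4/80 UMIs were 1 at the lowest, 12 at the median and 241 at the highest in CD170-high cells, against 0, 9 and 2057 in CD170-low cells. By share, 28.6% of CD170-high cells (21.7 to 36.2%) and 21.1% of CD170-low cells were above the 75th percentile. The sign was kept in 10 of 11 alternatives and was -2.85 points when cells were ranked by CD170 UMIs. The 161 cells highest for the F4/80 tag itself had a median of 16 F4/80 UMIs.

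The full marker combination was no more frequent. CD11b and F4/80 were both above in 10 CD170-high cells (6.21%, 3.02 to 11.1%) and in 5.67% of CD170-low cells. Without the neutrophil marker Ly-6G above, 5 CD170-high cells remained (3.11%) and 3.70% of CD170-low cells. The summed share of CD11b and F4/80 had a median of 16.4% in CD170-high cells, ranging from 3.66 to 30.1%, and 16.2% in CD170-low cells, ranging from 1.59 to 82.1%.

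Tags of other cell types showed differences of like size. FceRIa, the IgE receptor of mast cells and basophils, was above in 31.7% of CD170-high cells (24.6 to 39.5%) and 23.0% of CD170-low cells, with the same sign in 11 of 11 alternatives. The monocyte marker Ly-6C was above in 18.6% (12.9 to 25.5%) of CD170-high cells and 26.4% of CD170-low cells, and this difference was 8.97 points in the other direction with UMIs undivided. Sca-1, a stem and progenitor marker, was above in 18.0% (12.4 to 24.8%) of CD170-high cells and 24.9% of CD170-low cells, with the sign kept in 9 of 11 alternatives. F4/80 and FceRIa were the 2 tags whose CD170-high interval lay above the CD170-low value, and Ly-6C and Sca-1 were the 2 with an interval below it.

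For the remaining tags reported here the CD170-high interval held the CD170-low value. Ly-6G was above in 28.6% of CD170-high cells and 26.6% of CD170-low cells. The B cell marker CD45R/B220 was above in 24.2% of CD170-high and 23.5% of CD170-low cells. The T cell receptor component CD3 was above in 23.6% of CD170-high cells and 22.4% of CD170-low cells. CD4, the helper T cell co-receptor, was above in 21.1% of CD170-high and 23.3% of CD170-low cells, and CD8, that of cytotoxic T cells, in 29.2% of CD170-high and 24.4% of CD170-low cells. The dendritic cell marker CD11c was above in 24.2% of CD170-high and 22.1% of CD170-low cells. NK-1.1, a natural killer cell receptor, was above in 17.4% of CD170-high and 22.4% of CD170-low cells. Read the other way, CD170-high cells made up 2.09 to 3.84% of the cells above the 75th percentile of each of the 13 tags.

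**Figure D2:**
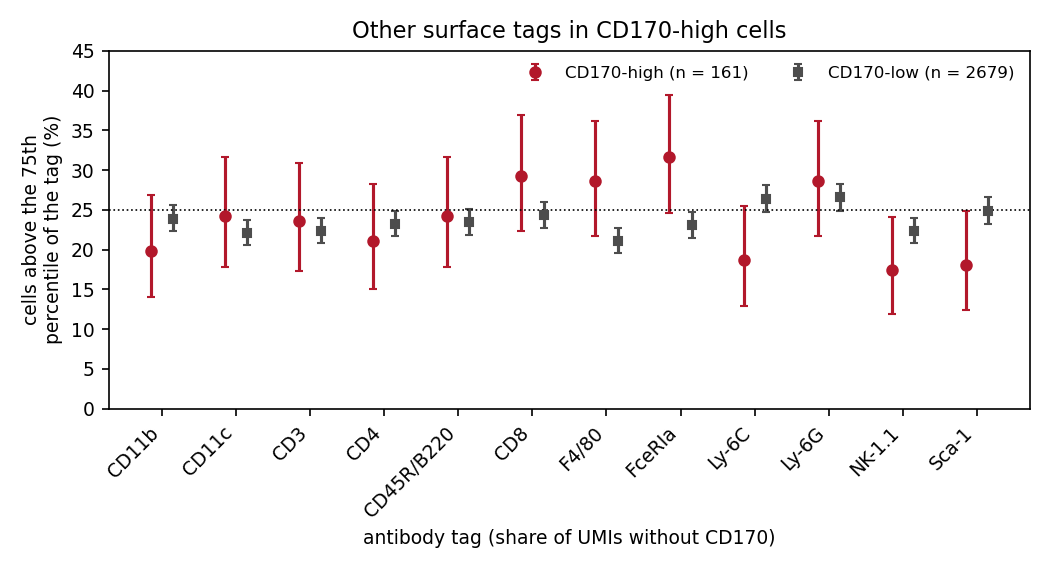
Percent of CD170-high cells (circles, n = 161) and CD170-low cells (squares, n = 2679) above the 75th percentile of each tag reported here (y axis, %), with exact 95% intervals; the dotted line is at 25%. CD11b lies at 19.9% in CD170-high cells and 23.9% in CD170-low cells, and F4/80 at 28.6% in CD170-high cells and 21.1% in CD170-low cells.

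The same rule was applied to other tags that are known to occur together, with mixed results. Of the 161 cells highest for CD11b, 60.2% (52.2 to 67.9%) were above for Ly-6G, which neutrophils carry with CD11b, against 17.9% of CD11b-low cells. Of the CD8-high cells, 33.5% (26.3 to 41.4%) were above for CD3, against 21.4% of CD8-low cells. CD11b-high cells were above for F4/80 in 34.2% (26.9 to 42.04%), against 21.1% of CD11b-low cells, and Ly-6G-high cells were above for CD11b in 28.6% (21.7 to 36.2%), against 17.4% of Ly-6G-low cells. In these pairs the interval lay above the low value. It held the low value for CD4-high cells above for CD3 (26.1%, 19.5 to 33.6%, against 21.6% of CD4-low cells) and for F4/80-high cells above for CD11b (26.7%, 20.1 to 34.2%, against 21.9% of F4/80-low cells).

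Members with more CD170 did not carry more CD11b. In the 53 members with the highest CD170 shares (66.3 to 86.7%), CD11b was above in 11.3%. It was above in 24.1% of the 54 in the middle and in 24.1% of the 54 with the lowest shares (27.2 to 44.7%). F4/80 was above in 28.3%, 31.5% and 25.9% of these groups in the same order. Their median CD170 UMIs were 907, 274.5 and 106.5.

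Barcodes outside the amplicon table passed the CD170 cut-off at close to the 3.00% that the rule fixed for cells. The tag table held 588794 barcodes outside the amplicon table, of which 74618 had at least 100 tag UMIs. The sources used here do not state what these barcodes hold. The lowest CD170-high share was passed by 3.00% of cells, a percent set by the rule that chose them and not a measurement. It was passed by 2181 other barcodes (2.92%, 2.80 to 3.05%), a ratio of 1.03. CD170 gave more than 50% of UMIs in 1.72% of cells and 1.87% of other barcodes. Over all barcodes, CD170 made up 8.59% of the UMIs in cells and 10.8% outside them.

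Within bins of the UMIs of the other tags, the shares were close in some bins and apart in others. Below 100 UMIs, 3.2% of cells (1.39 to 6.21%) and 5.17% of other barcodes passed. With 100 to 200 UMIs of the other tags, 1.66% of cells and 1.45% of other barcodes passed, and with 200 to 400 UMIs 5.96% of cells and 6.26% of other barcodes. With at least 400, 3.08% of cells (1.65 to 5.21%) passed, below the 6.67% of other barcodes. The tags beside CD170 differed in part as they did in cells. CD170-high other barcodes had higher medians of all 13 tags than CD170-low other barcodes, by 1.2 to 1.5 times. By share, 10 of 13 differences had the sign seen in cells, and CD11c, CD3 and CD4 had the other sign. The sizes were not the same. Ly-6G was above in 39.5% of CD170-high and 24.3% of CD170-low other barcodes, against 28.6% and 26.6% in cells. F4/80 was above in 26.1% of CD170-high and 23.7% of CD170-low other barcodes, against 28.6% and 21.1% in cells.

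Other tags gave other ratios by the same count. The rule fixed cells at 3.00% for each tag, so the ratios differ through the other barcodes alone. CD11b-high values were passed by 0.363% of other barcodes, a ratio of 8.27. The ratio was 9.08 for Ly-6C, 3.05 for CD45R/B220, 2.15 for Ly-6G and 1.67 for CD4. For F4/80 it was 0.861, for CD3 0.594 and for NK-1.1 0.538. In all, 7 of the 14 tags had a ratio above that of CD170.

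**Figure D3:**
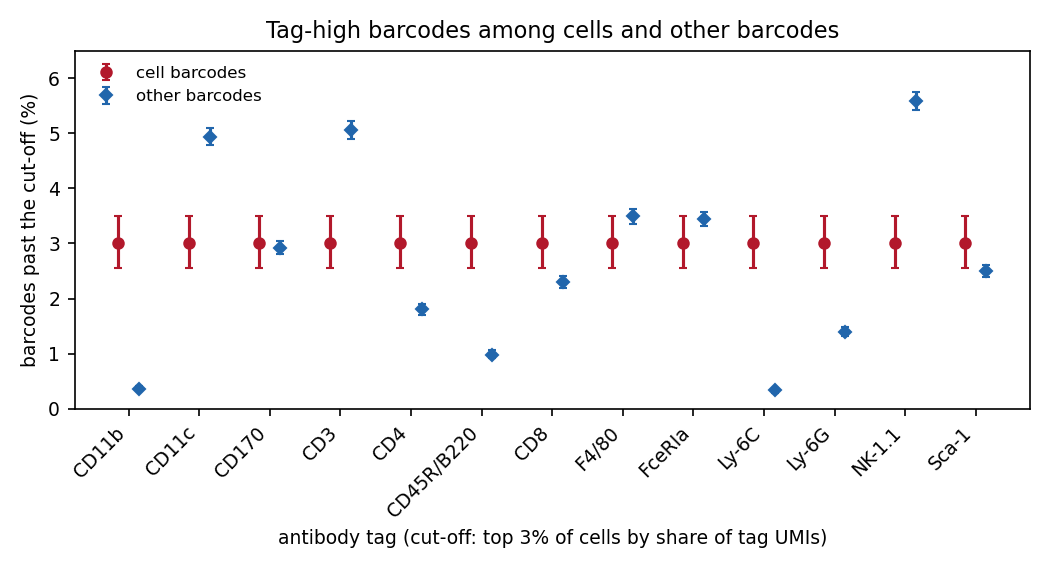
Percent of cell barcodes (circles) and of other barcodes (diamonds) with at least 100 tag UMIs that pass the value of the top 3% of cells for each tag reported here (y axis, %), with exact 95% intervals. For CD170 the points lie at 3.00% in cells and 2.92% in other barcodes, for CD11b at 3.00% in cells and 0.363% in other barcodes. Cells lie at 3.00% for every tag by rule, so their intervals measure nothing.

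No amplicon differed by 15 percentage points between CD170-high and CD170-low cells. An amplicon was called in a cell with 1 or more reads, CD170-low cells were weighted to the reads per cell of CD170-high cells in 10 bins, and 557 of 663 amplicons with a share of 2 to 98% were compared. The percents given for low cells at amplicons are these weighted values. Of these, 0 were higher and 0 lower by 15 points (0% of amplicons), and 2 were past 10 points. The differences ran from -10.8 to 9.08 points with a median of -0.375, and 480 amplicons (86.2%) lay within 5 points. The CD170-high intervals reached a median of 6.44 points to each side. The mean over the 404 intermediate amplicons, those at 25 to 90% in the bone marrow libraries, was 67.6% in CD170-high cells and 68.3% in CD170-low cells.

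The rule for naming amplicons named none, so those at the ends of the range are given, chosen after their values were seen. AMPL365802 was read in 76.4% of CD170-high cells (69.1 to 82.7%) and 87.2% of CD170-low cells. AMPL388681 was read in 49.1% (41.1 to 57.1%) of CD170-high cells and 59.8% of CD170-low cells. AMPL355615 was at 70.8% in CD170-high and 80.7% in CD170-low cells. On the other side, AMPL366126 was read in 55.3% (47.3 to 63.1%) of CD170-high cells and 46.2% of CD170-low cells, and AMPL377123 in 37.3% of CD170-high and 28.7% of CD170-low cells. CD11b-high minus CD11b-low cells differed by 12.9 points at AMPL365802, 29.0 at AMPL388681 and 15.7 at AMPL355615, opposite in sign to CD170. They differed by 10.9 points at AMPL366126, with the sign seen for CD170, and by -4.53 at AMPL377123, with the other sign.

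Cells chosen in the same way by lineage tags did differ at amplicons. CD11b-high cells had 57 amplicons at least 15 points higher and 40 lower than CD11b-low cells (10.2% and 7.13% of 561, 17.3% together). CD45R/B220-high cells had 97 higher and 16 lower (17.4% and 2.87% of 558, 20.3% together). For CD4 the count in either direction was 87 (15.6%), for Sca-1 62 (11.1%), for Ly-6C 54 (9.68%), for CD8 41 (7.4%) and for Ly-6G 15 (2.68%). FceRIa-high cells had 2 (0.357%) and NK-1.1-high cells 1 (0.18%), and F4/80, CD3 and CD11c had 0 (0%), as CD170 did. The 7 tags with a higher ratio of cells to other barcodes than CD170 had 15 to 113 amplicons past 15 points, and CD170 and the 5 tags reported here with a lower ratio had 0 to 2.

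The CD170 differences at these amplicons were all under 15 points. At the 57 amplicons higher in CD11b-high cells, where the median difference was 19.0 points, the CD170 differences had a median of -1.76 and ran from -10.8 to 8.15, with 23 positive. At the 40 lower ones, with a CD11b median of -21.9, the CD170 median was -1.23, with 14 positive. At the 97 amplicons higher in CD45R/B220-high cells (median 26.1) the CD170 median was -0.273, and at the 16 lower ones (median -26.5) it was -1.65, ranging from -8.56 to 6.87 with 7 positive. Each of these CD170 medians was negative, as was the median of -0.375 over all 557 amplicons compared. Of those 557, 237 (42.5%) had a positive CD170 difference, so the signs do not set these amplicons apart.

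AMPL371259 was read in 95.03% of CD11b-high and 56.3% of CD11b-low cells, and in 68.9% of CD170-high and 66.4% of CD170-low cells. AMPL371535 was read in 6.83% of CD11b-high and 45.6% of CD11b-low cells, and in 31.1% of CD170-high and 32.3% of CD170-low cells. AMPL365818 was read in 81.4% of CD45R/B220-high and 29.3% of CD45R/B220-low cells, against 34.2% of CD170-high and 36.8% of CD170-low cells. AMPL388705 was read in 32.9% of CD45R/B220-high and 85.7% of CD45R/B220-low cells, against 70.2% (62.5 to 77.1%) of CD170-high and 78.0% of CD170-low cells, a CD170 difference of -7.80 points. These 4 amplicons were picked for the largest differences by the lineage tag. Both CD170-high and CD170-low cells lay between the lineage tag's groups at all 4, so this position does not set CD170-high cells apart. At AMPL388705 the CD170-high interval lay below the CD170-low value.

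**Figure D4:**
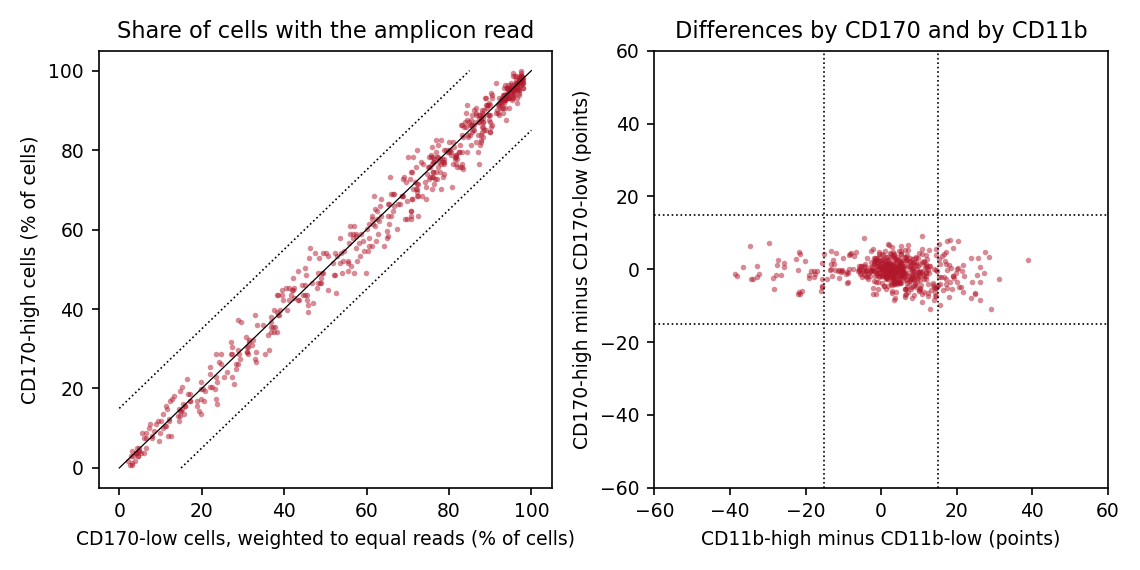
Left, percent of CD170-high cells with a read (y axis) against CD170-low cells weighted to equal reads (x axis) for 557 amplicons, with dotted lines 15 points from the diagonal; right, the CD170 difference (y axis, points) against the CD11b difference (x axis, points). The CD170 differences stay between -10.8 and 9.08 points, and the CD11b differences reach -38.8 and 38.8.

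Smaller groups of members were set against the same CD170-low cells, weighted here to the reads per cell of each group in 5 bins. Each count below is out of the same 557 amplicons, of which 0 were past 15 points for all 161 members. The 80 members with the highest CD170 shares had 2 amplicons past 15 points and the 81 others had 1, with intervals of 9.28 and 9.18 points to each side. The 46 members above for F4/80 had 10, with intervals of 11.8 points. The 32 members above for CD11b had 52 of the 557, with differences from -30.6 to 26.9 points. Their intervals of 13.8 points to each side were close to the 15 points of a call. Members above for F4/80 or CD11b were picked by that tag as well, and the CD170-low cells were not. A difference that goes with CD170 and one that goes with the second tag cannot be told apart in these 2 subsets.

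Cells clustered on methylation calls alone, after removing the part explained by reads per cell, placed CD170-high cells in every cluster. In the 5 clusters of 663 to 2087 cells they made up 2.71 to 3.21%, with 64, 32, 25, 21 and 18 members from the largest cluster to the smallest of them, and the last cluster of 118 cells held 1 (0.847%, 0.0215 to 4.63%). CD11b-high cells made up 10.2% of cluster 2, which held 66.5% of them, and at most 1.96% of any other cluster. CD45R/B220-high cells made up 8.60% of cluster 3 and 9.64% of cluster 4. CD4-high cells made up 9.50% and CD8-high cells 7.99% of cluster 5. The CD170 range over the 5 larger clusters was within the interval of each. An even spread was not particular to CD170. F4/80-high cells made up 2.57 to 3.31% of the 5 larger clusters, and NK-1.1-high cells 2.31 to 4.22%.

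**Figure D5:**
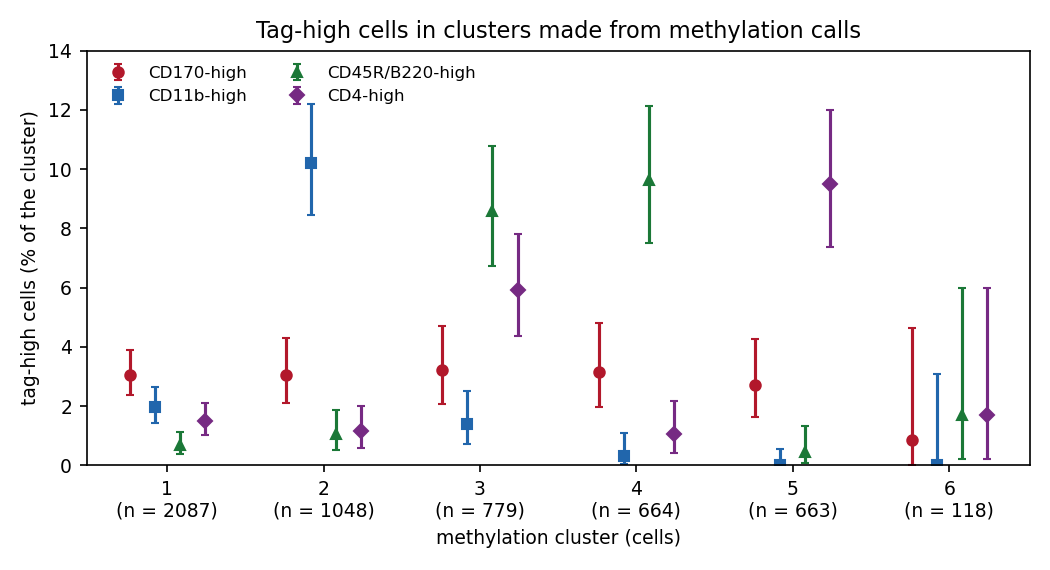
Percent of each methylation cluster (x axis, with its number of cells) made up by CD170-high, CD11b-high, CD45R/B220-high and CD4-high cells (y axis, %), with exact 95% intervals. CD170-high cells stay at 2.71 to 3.21% in clusters 1 to 5, while CD11b-high cells reach 10.2% in cluster 2. F4/80-high cells, not drawn, stay at 2.57 to 3.31% in clusters 1 to 5.

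CD170 could not be compared in a second library. The lung tag table held 18 CD170 UMIs in all. The other tag tables gave a count of 0 under that name, which also stands for a table without such a tag. By this count 1 library carried a CD170 tag of its own.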

How the data were processed

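The amplicon tables held read counts per cell and amplicon, as deposited by the authors with no normalization; the tag table held UMI counts per barcode and antibody, per the file headers. The build named in the submitters' processing notes is mm10. Aligner, cell calling and cell filters are not given in the sources used, and amplicons are known only by panel identifiers. The library held 214181515 amplicon reads (median 23575 per cell) and 27423998 tag UMIs over 596179 barcodes, of which 1968007 fell in cells. The 3 UMIs of tags from other panels in cells stayed in the UMI totals, and those tags were not compared.

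Shares of cells, exact intervals and weighted differences were computed with Python 3.11.15, pandas 2.3.3 and scipy 1.17.1, and clusters (k-means, 6 clusters, 10 principal components) with scikit-learn 1.9.0. The weighting was tested on simulated data. Doublets were not called. With 1 library no p-value was computed. The rule for amplicons was to name those past 15 points; for tags, every tag on the marker lists. One tag of the panel is not reported here by name; it stays in the UMI totals and in counts over all tags. The members, the lists and the rules were chosen with earlier results of these data known. The comparison with other barcodes, the clusters and the comparison with the high cells of other tags were added after the files had been seen.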

Additional observations from a re-analysis of the deposited data

How the results depend on the processing

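The count of 0 amplicons past 15 points became 1 with the top 1% of cells (54 members), 9 with at least 200 tag UMIs (66 members, 8 of the 9 lower) and 2 at 10 points, and was 0 under the other alternatives. Intervals are wider where there are fewer members. The mean difference over intermediate amplicons stayed between -3.23 and 2.64 points over 15 alternatives. The CD11b difference of -4.01 points was -12.8 with the top 1% of cells, -13.1 with cells ranked by CD170 UMIs, 13.3 with tag UMIs undivided and 6.88 with CD170-low cells weighted on tag UMIs. The F4/80 difference of 7.48 points was -2.85, 17.2 and 16.3 under the last 3 of these; the cause was not tested. With UMIs undivided all 13 tags were higher, by 8.97 to 22.9 points. Weighting on the UMIs of the other tags, chosen after seeing the data, gave -2.76 for CD11b and 8.94 for F4/80. The CD170-high share of other barcodes, 2.92%, was 8.26% with at least 200 tag UMIs, against 6.70% of cells. It was 2.71% with at least 100 UMIs of the other tags, against 2.99% of cells. Both settings were also chosen after seeing the data. Thinning to 12501 reads left out 6 CD170-high cells (3.73%) and 121 CD170-low cells (4.52%). The comparison over libraries and its alternatives were not run because it needed 3 libraries with CD170 and 1 had it. No paired analysis was possible because both groups of cells come from 1 library. With 161 members, the intervals of the CD170-high shares reached a median of 6.44 points to each side. Differences of about that size or less cannot be told from counting error at many amplicons. No limit of detection was computed, and differences under 15 points were not called.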

Other observations

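The median UMIs of a tag in its top 3% of cells and the number of amplicons past 15 points had no single order. CD170-high and Ly-6G-high cells had medians of 269 and 351 UMIs of their tag and 0 and 15 amplicons. CD8-high and Ly-6C-high cells had medians of 73 and 64 UMIs and 41 and 54 amplicons. CD11b-high, CD4-high and CD45R/B220-high cells had medians of 30, 20 and 19 UMIs and 97, 87 and 113 amplicons. CD11c-high, F4/80-high, CD3-high and NK-1.1-high cells had medians of 18, 16, 15 and 14 UMIs and 0, 0, 0 and 1 amplicons. CD170 gave more than 50% of a cell's tag UMIs in 92 cells, against 83 for Ly-6G, 45 for FceRIa and 40 for CD8.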
